A study of Mus musculus with 10 samples.

Results

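The immunoglobulin gene segments were examined in RNA sequencing of whole mouse liver after napabucasin or its vehicle. Segments were taken as the rows of the deposited gene count table whose biotype is IG_C_gene, IG_V_gene, IG_J_gene or IG_D_gene, without pseudogenes, which gave 264 of 54532 genes. They comprised 13 constant (C), 218 variable (V), 14 joining (J) and 19 diversity (D) segments. The treated mice received napabucasin (BBI608), a small quinone described as a blocker of STAT3-dependent transcription, at 20 mg per kg by gavage each day for 7 days (n = 5). The vehicle mice received 1% sodium carboxymethyl cellulose (NaCMC) by gavage on the same schedule (n = 5). The sources used here do not give strain, sex or age.

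An antibody is built from heavy chains and either kappa or lambda light chains. Each B cell joins V, D and J segments (heavy chain) or V and J segments (light chain) into its own variable exon, which is spliced to a constant region. Naive B cells make IgM and IgD together by alternative splicing of the heavy chain transcript, and class switching later replaces these with IgG, IgE or IgA. Plasma cells, the antibody-secreting end stage, hold very large amounts of immunoglobulin mRNA, and IgA is the main class of mucosal plasma cells. In whole liver these transcripts come from lymphocytes and plasma cells lying among the hepatocytes.

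Library totals ran from 15364342 to 17369118 counts in napabucasin livers and from 14124484 to 17759967 counts in vehicle livers. The hepatocyte markers Alb and Cps1 averaged 70587 and 1691 CPM (counts scaled to a common library size) in napabucasin livers and 86442 and 2537 CPM in vehicle livers, so the labelled tissue carried its defining genes. The rRNA genes took 1.09% of counts in napabucasin replicates 1 and 2 and 0.426% to 0.455% in the other napabucasin libraries. In the vehicle group their share was 0.912% in replicate 2 and 0.195% to 0.431% in the others. Vehicle replicate 3 stood apart on immunoglobulin: its 264 segments summed to 662 CPM, against 144 to 290 CPM in the other vehicle livers and 225 to 431 CPM in napabucasin livers. Values without that library, or without the 3 libraries with the most rRNA, are given beside the results that they move most. In bulk tissue, fewer cells of a type and less RNA per cell cannot be told apart.

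The constant genes of the naive B cell classes, Ighd and Ighm, and of the lambda light chains were higher in napabucasin livers. Igha, Ighg2b, Ighg2c, Ighg1 and Igkc, by contrast, had log2 fold changes between -0.38 and 0.24. Ighg3, an IgG gene, did not follow this split. Its log2 fold change was 1.28, and 0.59 to 2.22 with a library left out. Without vehicle replicate 3, Igha, Ighg2b, Ighg2c, Ighg1 and Igkc were all above 0, at 0.41, 0.70, 0.10, 0.65 and 0.63. The difference between the higher genes and the others was not tested. None of these genes passed the threshold of an adjusted p under 0.05. Of the 264 segments, 201 had at least 1 count and 63 had none, and 131 had fewer than 10 counts over all 10 libraries. Only 19 passed the low-count filter: 7 heavy constant genes, Igkc, 3 lambda constant genes, 7 kappa V segments and Iglv1. The edgeR quasi-likelihood test called 0 of the 19, and 0% of the 14244 genes tested, the smallest adjusted p of any gene being 0.0644. At an unadjusted p under 0.05, 4 of the 19 lay higher (Ighd, Ighm, Iglc3 and Iglc1), against 9.34% of all genes tested, and 0 lay lower, against 5.83%. With the replicate number as a block, edgeR called 0, with 6 higher (11.8% of all genes) and 1 lower (8.81%) at an unadjusted p under 0.05. DESeq2 called 3 segments higher at an adjusted p under 0.05 (Ighd, Ighm and Iglc3), with 1.07% of its genes, and limma-voom called Ighd, with 0.688%.

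Fold changes are napabucasin over vehicle, and values above 0 were found for 10 of the 19 tested segments, against 50.1% of all genes tested. Their median log2 fold change was 0.03, beside 0.001 over all genes tested. Without vehicle replicate 3 the median was 0.65 and 7 segments lay higher at an unadjusted p under 0.05. Without the 3 libraries with the most rRNA the median was -0.09 and 3 segments did. The shares of all genes in these fits were not computed, so the counts of 7 and 3 have no background beside them. The classes differed in where they lay: the median was 0.04 over 7 heavy constant genes, 0.97 over 3 lambda constant genes and -0.34 over 7 kappa V segments.

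**Figure D1:**
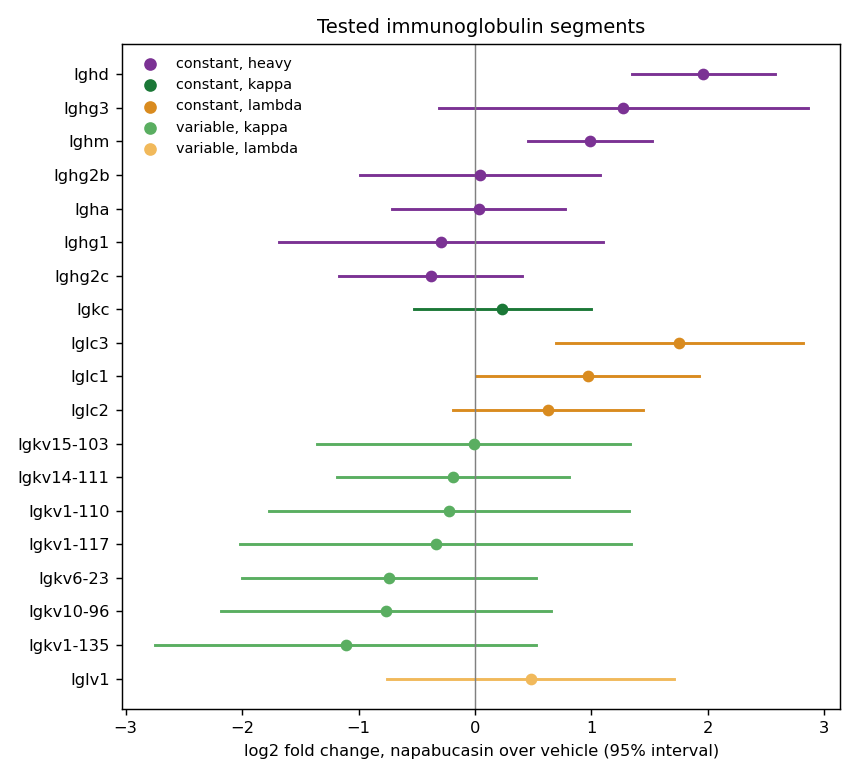
Log2 fold change of napabucasin over vehicle livers for the 19 tested immunoglobulin segments, with 95% intervals from the edgeR fit (x axis, log2 units) and a segment per row, coloured by class. Ighd at 1.96 and Iglc3 at 1.76 lie farthest to the right, and the 7 kappa V segments lie at or left of 0.

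Ighd encodes the constant region of IgD, the receptor that marks naive B cells, and was the segment with the smallest p. It measured 33.4, 23.4, 19.5, 12.6 and 12.2 CPM in napabucasin replicates 1 to 5, against 5.22, 4.09, 6.68, 5.73 and 4.24 CPM in vehicle replicates 1 to 5. Every napabucasin liver lay above every vehicle liver, which held for Ighd alone of the 19 tested segments and for 1.21% of all genes tested. For 0 segments did every napabucasin liver lie below every vehicle liver, against 0.934% of all genes tested. The edgeR estimate was 1.96 on the log2 scale (SE 0.29, adjusted p = 0.0644), rank 2 of 14244 genes by p. The adjusted p was 1.19e-06 with DESeq2 and 0.0185 with limma-voom. In edgeR it passed the threshold without napabucasin replicate 5 (adjusted p = 0.0181) and without vehicle replicate 1 (adjusted p = 0.0495), and it was 0.288 without vehicle replicate 3. Without the 3 libraries with the most rRNA the log2 fold change was 1.45 (edgeR adjusted p = 0.133).

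Exon 2 of Ighd is printed because it encodes the hinge of IgD, a part that the constant region of IgM lacks. It lies on the minus strand at chr12:113415562-113415666 (GRCm38, transcript sequence from GENCODE M21) and has 105 bases, in capitals here, with 30 coding bases of the neighbouring exons on each side in lower case. No 100-base window of the Ighd transcript model recurred in another immunoglobulin gene of GENCODE M21.
Ighd exon 2: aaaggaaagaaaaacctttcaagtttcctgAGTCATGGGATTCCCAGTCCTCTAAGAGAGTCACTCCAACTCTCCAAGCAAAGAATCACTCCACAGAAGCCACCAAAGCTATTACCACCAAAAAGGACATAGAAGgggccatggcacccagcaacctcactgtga

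Ighm encodes the constant region of IgM, which is made by naive B cells with IgD and is also secreted by plasma cells. Its levels were 49.1, 42.6, 47.1, 30.8 and 28.5 CPM in napabucasin replicates 1 to 5, against 17.7, 13.5, 31.7, 15.1 and 21.7 CPM in vehicle replicates 1 to 5. The groups overlapped, since napabucasin replicates 4 and 5 lay below vehicle replicate 3. By edgeR the log2 fold change was 0.99 with an SE of 0.25 (adjusted p = 0.196, unadjusted p = 0.00136), and DESeq2 gave an adjusted p of 0.0322. Across all alternatives run, the adjusted p ranged from 0.0322 to 0.507.

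For IgA and the IgG subclasses the differences lay within the spread between mice. Igha, the constant gene of IgA, measured 59.8, 75.6, 89.5, 105 and 46.7 CPM in napabucasin replicates 1 to 5 and 64.5, 60.8, 142, 73.2 and 27.9 CPM in vehicle replicates 1 to 5. The means were 75.3 ± 23.2 CPM and 73.7 ± 41.8 CPM (SD, n = 5 each). On the log2 scale the fold change was 0.03, with a 95% interval of -0.71 to 0.78 (edgeR adjusted p = 0.968). Ighg2c averaged 27.4 ± 7.61 CPM in napabucasin livers and 35.6 ± 24.2 CPM in vehicle livers (SD, n = 5 each), and its log2 fold change was -0.38 (edgeR adjusted p = 0.610). The value was 0.10 without vehicle replicate 3, which held 76.3 CPM of it.

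Ighg2b averaged 23.3 ± 9.29 CPM in napabucasin livers and 22.6 ± 19.8 CPM in vehicle livers (SD, n = 5 each), and its log2 fold change of 0.04 had an edgeR adjusted p of 0.971. Ighg1 ranged from 2.43 to 18.3 CPM in napabucasin livers and from 2.57 to 34.3 CPM in vehicle livers. Its log2 fold change was -0.29 (SE 0.65), and 0.65 without vehicle replicate 3. Ighg3, the least abundant of the 4 IgG genes, ranged from 0.274 to 10.3 CPM in napabucasin livers and from 0.770 to 5.05 CPM in vehicle livers, and was 1.28 on the log2 fold scale (SE 0.74, edgeR adjusted p = 0.411). It was 2.22 without vehicle replicate 3 and 0.59 without napabucasin replicate 2. The 4 IgG genes summed to 64.3 ± 25.3 CPM in napabucasin livers and 71.6 ± 58.6 CPM in vehicle livers (SD, n = 5 each). The log2 ratio of these means was -0.16, and 0.46 without vehicle replicate 3. Ighe, the constant gene of IgE, had 4 counts in napabucasin replicate 4 and 0 in the other 9 libraries, where a count of 0 allows up to 3 counts, or 0.138 to 0.257 CPM.

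**Figure D2:**
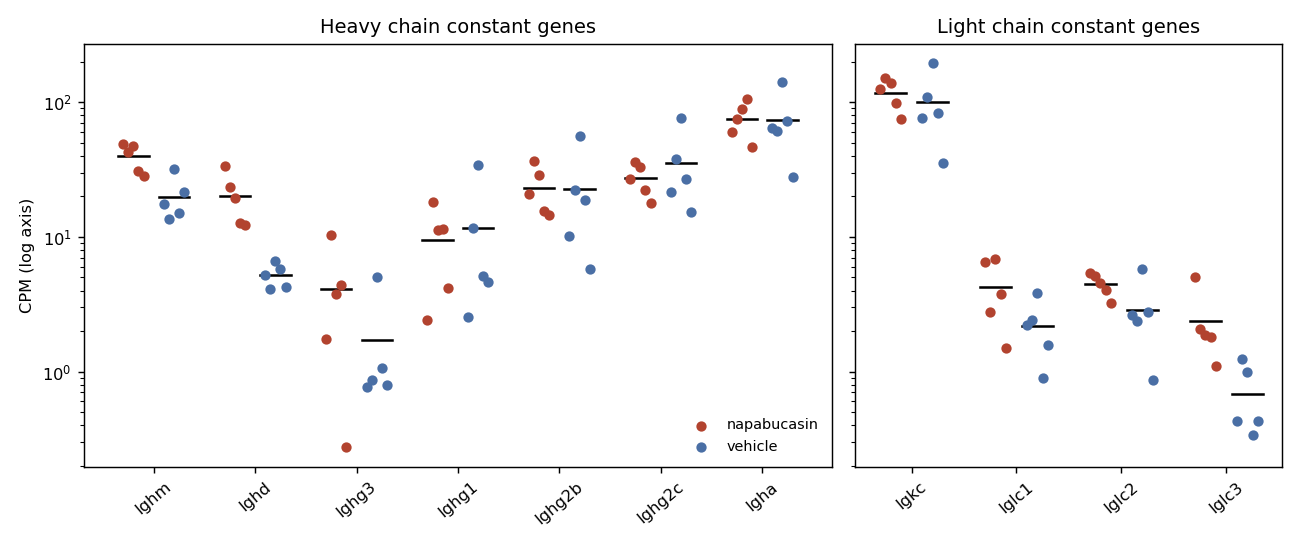
CPM on a log axis for 7 heavy chain constant genes and 4 light chain constant genes, with a point per liver, napabucasin in red on the left and vehicle in blue on the right of each pair, and black bars at the group means. The Ighd groups are fully apart, at 12.2 to 33.4 and 4.09 to 6.68 CPM, while the Igha and IgG groups overlap.

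The make-up of heavy constant transcripts can be read as shares of the counts of all 8 heavy constant genes in a library, which do not depend on library scaling. Ighd held 17.2%, 9.64%, 8.34%, 6.22% and 9.86% of them in napabucasin replicates 1 to 5, against 4.26%, 2.70%, 1.90%, 3.93% and 5.28% in vehicle replicates 1 to 5. No napabucasin share lay within the vehicle range. Ighg2c held 13.9%, 14.9%, 14.3%, 11.1% and 14.3% in napabucasin replicates 1 to 5, against 17.7%, 25.1%, 21.7%, 18.5% and 19.0% in vehicle replicates 1 to 5, and every napabucasin share lay below every vehicle share. Ighm averaged 20.2% ± 4.03 in napabucasin livers and 13.9% ± 7.66 in vehicle livers (SD, n = 5 each). Igha averaged 37.9% ± 8.55 in napabucasin livers and 43.6% ± 7.48 in vehicle livers (SD, n = 5 each). These shares are descriptions with no test, and a higher share of 1 class lowers the others by construction.

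**Figure D3:**
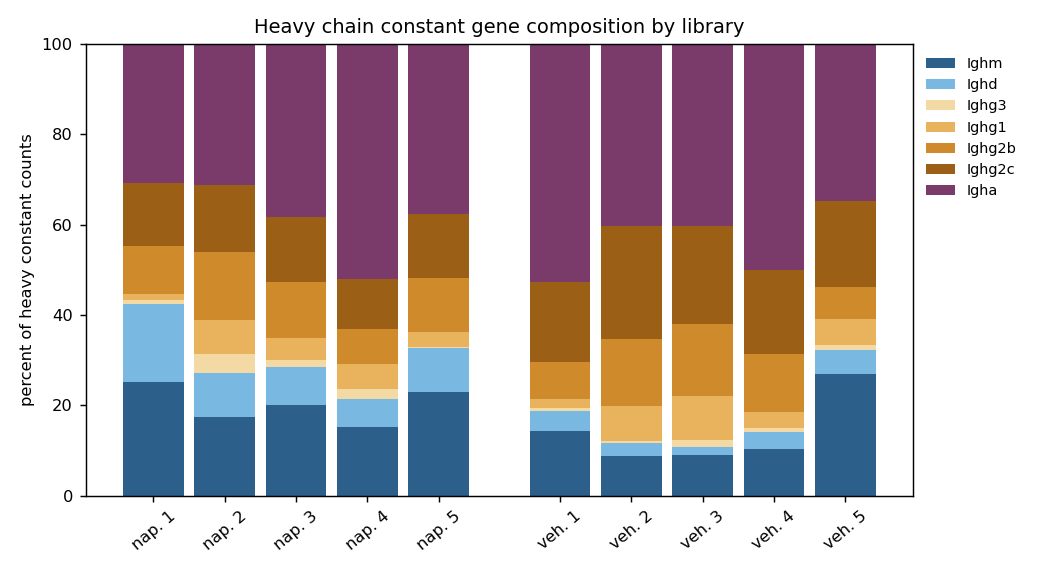
Stacked bars of the percent of heavy constant counts held by each constant gene (y axis) in each liver, napabucasin replicates at the left and vehicle replicates at the right. The light blue Ighd segment spans 6.22% to 17.2% in napabucasin livers and 1.90% to 5.28% in vehicle livers.

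Ighd and Ighm lie next to each other and share a transcript in naive B cells, so their ratio within a library was compared. Ighd reached 0.681, 0.550, 0.414, 0.410 and 0.431 counts per Ighm count in napabucasin replicates 1 to 5, against 0.296, 0.304, 0.212, 0.382 and 0.197 in vehicle replicates 1 to 5. Each of the 5 napabucasin livers lay above each vehicle liver. The log2 ratio averaged -1.04 ± 0.32 in napabucasin livers and -1.89 ± 0.40 in vehicle livers (SD, n = 5 each), a difference of 0.85. An exact two-sided permutation test over all assignments of 5 and 5 libraries gave p = 0.0079, the smallest it can give, and 0.0238 after Benjamini-Hochberg adjustment over 3 ratios. Exchanging labels only within pairs of the same replicate number gave an exact p of 0.0625, the smallest that 32 exchanges allow. Without the 3 libraries with the most rRNA, 2 of which hold the highest ratios, the difference was 0.67 (exact permutation p = 0.0571). The higher Ighd had been seen in these data before the ratio was chosen.

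The ratio of Igha to Ighm counts, which sets the mucosal class against the class of naive cells, was 1.22 to 3.41 in napabucasin livers and 1.29 to 4.85 in vehicle livers. The log2 difference was -0.86, with an exact two-sided permutation p of 0.103. Vehicle replicate 5 alone among the vehicle livers had a low value, 1.29, and without it the difference was -1.21 (exact permutation p = 0.0159). Without napabucasin replicate 4 the difference was -1.08 (exact permutation p = 0.0397). Of 14 alternatives run, only these 2 gave an exact p under 0.05. The difference was -0.53 without the 3 libraries with the most rRNA (exact permutation p = 0.371). Exchanging labels within pairs gave an exact p of 0.125, where the smallest possible is 0.0625.

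Of the 3 tested lambda constant genes, Iglc3 and Iglc1 lay higher in napabucasin livers at an unadjusted p under 0.05, and none passed the adjusted threshold in edgeR. Iglc3 measured 5.05, 2.06, 1.88, 1.82 and 1.09 CPM in napabucasin replicates 1 to 5, against 0.428, 1.24, 0.995, 0.337 and 0.431 CPM in vehicle replicates 1 to 5. Of the 5 napabucasin livers, 4 lay above the highest vehicle liver. In edgeR the log2 fold change was 1.76 with an SE of 0.49 (adjusted p = 0.221, unadjusted p = 0.00329), and DESeq2 gave an adjusted p of 0.0438. Without napabucasin replicate 1 the log2 fold change was 1.29. These levels rest on 203 counts in 5 napabucasin libraries and 58 counts in 5 vehicle libraries.

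Iglc1 measured 6.55, 2.76, 6.86, 3.74 and 1.51 CPM in napabucasin replicates 1 to 5, against 2.22, 2.43, 3.84, 0.899 and 1.58 CPM in vehicle replicates 1 to 5. Only 2 napabucasin livers lay above the highest vehicle liver, and edgeR put the log2 fold change at 0.97 with an SE of 0.45 (adjusted p = 0.326, unadjusted p = 0.0478). Iglc2 averaged 4.45 ± 0.871 CPM in napabucasin livers and 2.88 ± 1.78 CPM in vehicle livers (SD, n = 5 each), and its log2 fold change was 0.63 (edgeR adjusted p = 0.430). Iglc4 had 0 counts in every library.

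Of the lambda constant genes, Iglc2 and Iglc3 are close copies, whereas Iglc1 is less alike. A matching 120-base stretch near the start of the 3 constant exons is printed to show how far reads can tell them apart. All lie on the minus strand of chromosome 16 in GRCm38 and are read from GENCODE M21. Capitals in Iglc3 and Iglc1 mark bases that differ from Iglc2, and capitals in Iglc2 mark bases that differ from either of the others.
Iglc2 (chr16:19198731-19198850): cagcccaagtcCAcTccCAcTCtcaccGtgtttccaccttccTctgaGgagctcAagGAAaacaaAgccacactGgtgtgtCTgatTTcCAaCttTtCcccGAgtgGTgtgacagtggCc
Iglc3 (chr16:19065560-19065679): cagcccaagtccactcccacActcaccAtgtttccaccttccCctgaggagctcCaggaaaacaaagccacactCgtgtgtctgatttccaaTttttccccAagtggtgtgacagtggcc
Iglc1 (chr16:19061950-19062069): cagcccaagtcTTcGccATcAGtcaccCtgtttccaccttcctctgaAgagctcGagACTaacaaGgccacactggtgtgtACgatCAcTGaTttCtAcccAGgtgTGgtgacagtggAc
Iglc3 differs from Iglc2 at 7 of these 120 bases and Iglc1 at 28. Over the aligned coding exons, Iglc2 and Iglc3 are 96.5% identical over 312 bases, and Iglc1 is 74.9% identical to Iglc2. No 100-base window was shared between the transcript models of the 3 genes, but the sources used here do not give the read length or the handling of reads with several hits. The split between Iglc2 and Iglc3 is therefore uncertain.

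Igkc, the single kappa constant gene, measured 127, 151, 139, 98.2 and 74.9 CPM in napabucasin replicates 1 to 5, against 76.3, 110, 195, 83.5 and 35.5 CPM in vehicle replicates 1 to 5. The highest and the lowest of the 10 livers were both vehicle livers, and the fold change on the log2 scale was 0.24, with a 95% interval from -0.53 to 1.00 (edgeR adjusted p = 0.750). Without vehicle replicate 3 it was 0.63, beside 1.03 for Iglc2. On the deposited per-length scale Igkc was the most abundant constant gene, at 219 ± 57.8 FPKM in napabucasin livers and 186 ± 111 FPKM in vehicle livers (SD, n = 5 each). Igha followed in the mean, at 27.9 ± 8.71 FPKM in napabucasin livers and 27.4 ± 15.6 FPKM in vehicle livers (SD, n = 5 each). Ighm and Ighg2c stood at 20.7 ± 4.94 and 20.4 ± 5.74 FPKM in napabucasin livers and at 10.5 ± 3.89 and 26.6 ± 18.2 FPKM in vehicle livers (SD, n = 5 each). The SD range of Ighg2c overlapped that of Igha in both groups and that of Ighm in napabucasin livers. These genes were not compared within each liver, so no order between them is drawn from these means.

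Counts of Igkc per count of the summed lambda constant genes were 7.45, 15.1, 10.5, 10.2 and 12.8 in napabucasin replicates 1 to 5, against 14.3, 18.1, 18.4, 20.8 and 12.2 in vehicle replicates 1 to 5. Napabucasin replicates 1, 3 and 4 lay below every vehicle liver, and the others lay within the vehicle range. The log2 ratio differed by -0.59 (exact two-sided permutation p = 0.0397, Benjamini-Hochberg 0.0595 over 3 ratios). Exchange within pairs gave an exact p of 0.125, where the smallest possible is 0.0625. Without napabucasin replicate 1 the difference was -0.46 (exact permutation p = 0.0714). Leaving out each library in turn gave exact permutation p from 0.0238 to 0.0794. The exact p was under 0.05 in 6 of 14 alternatives.

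The variable segments drew far fewer counts than the constant genes, and in both groups the counts were spread over many segments. All V segments together summed to 28.3 ± 15.6 CPM in napabucasin livers and 40.6 ± 36.4 CPM in vehicle livers (SD, n = 5 each), whereas the constant genes summed to 328 ± 78.3 CPM and 276 ± 167 CPM (SD, n = 5 each). Heavy V segments summed to 2.00, 3.68, 8.63, 13.2 and 4.38 CPM in napabucasin replicates 1 to 5, against 2.39, 4.82, 33.0, 16.6 and 7.90 CPM in vehicle replicates 1 to 5. Of 113 heavy V segments, 87 had a count and 0 passed the filter. Kappa V segments summed to 7.17, 12.2, 29.3, 25.3 and 12.9 CPM in napabucasin replicates 1 to 5, against 8.38, 15.2, 59.7, 23.0 and 14.9 CPM in vehicle replicates 1 to 5. Vehicle replicate 3 was the highest library for both, and the groups overlapped. Without it, the log2 ratio of group means was -0.31 for heavy V, against -1.02 with it, and 0.18 for kappa V, against -0.48 with it. Without the 3 libraries with the most rRNA, these ratios were -0.77 for heavy V and -0.23 for kappa V.

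None of the 8 V segments tested reached an unadjusted p under 0.05. Igkv1-110, the most abundant kappa V segment, ranged from 0 to 2.72 CPM in napabucasin livers and from 0.428 to 2.98 CPM in vehicle livers (log2 fold change -0.22, SE 0.72). Igkv6-23 averaged 0.920 ± 0.325 CPM in napabucasin livers and 1.54 ± 1.29 CPM in vehicle livers (SD, n = 5 each), and its log2 fold change was -0.74 (edgeR adjusted p = 0.537). Igkv1-135 had the lowest fold change, -1.11 (SE 0.76, edgeR adjusted p = 0.479), and -0.32 without vehicle replicate 3. Igkv10-96 and Igkv1-117 had log2 fold changes of -0.76 and -0.34, which were 0.19 and 0.72 without vehicle replicate 3. Igkv14-111 and Igkv15-103 lay at -0.19 and -0.01. Of the Igkv1-110 transcript model 16.2% of 100-base windows also occur in Igkv1-117, and 12.3% of those of Igkv10-96 occur in Igkv10-94, so reads may be split between these copies.

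Iglv1, the more abundant lambda V segment, measured 2.00, 3.62, 4.70, 4.49 and 2.05 CPM in napabucasin replicates 1 to 5, against 0.599, 1.88, 7.46, 1.12 and 1.08 CPM in vehicle replicates 1 to 5. All 5 napabucasin livers lay above 4 of the vehicle livers and below vehicle replicate 3. On the log2 scale the edgeR fold change was 0.48 (SE 0.57, adjusted p = 0.682), and 1.50 without that library. Iglv2 had 53 counts in napabucasin livers and 47 in vehicle livers. The 2 segments are 97.0% identical over 305 aligned bases, and a 120-base stretch of each is printed to show how few positions separate their reads. Capitals mark the 4 bases that differ, on the minus strand of GRCm38 as read from GENCODE M21.
Iglv1 (chr16:19085202-19085321): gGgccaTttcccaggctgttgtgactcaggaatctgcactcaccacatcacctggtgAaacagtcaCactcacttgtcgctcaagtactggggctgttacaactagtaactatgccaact
Iglv2 (chr16:19260586-19260705): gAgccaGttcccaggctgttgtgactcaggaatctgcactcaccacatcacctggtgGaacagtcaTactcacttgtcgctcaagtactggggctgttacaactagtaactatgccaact

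Among the heavy V segments the most abundant was Ighv1-81, with 7, 0, 8, 7 and 9 counts in napabucasin replicates 1 to 5, against 1, 25, 33, 12 and 14 counts in vehicle replicates 1 to 5. Ighv9-3 had 41 counts in napabucasin livers and 47 in vehicle livers, 36 of them in vehicle replicate 3. Ighv1-26 had 29 counts in napabucasin livers and 40 in vehicle livers, and Ighv1-18 had 16 in napabucasin livers and 53 in vehicle livers. When the test was run with no low-count filter, over 26567 genes, 13 of 201 segments lay lower at an unadjusted p under 0.05, against 5.31% of all genes, and 5 lay higher, against 6.33%. Of the 13, 11 were heavy V segments, among 87 tested. Ighv1-4, named after its values were seen, had 1 count in napabucasin livers and 37 in vehicle livers, 34 of them in vehicle replicate 3. Without the filter edgeR called Ighd at an adjusted p of 3.76e-04, and no other segment, with 0.0565% of genes called higher.

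Joining and diversity segments were close to unmeasured. Both kinds are short and, in a rearranged transcript, lie within the variable exon. The 2 most abundant joining segments are printed whole to show this length, from GENCODE M21 on GRCm38, with Ighj4 on the minus strand and Igkj5 on the plus strand.
Ighj4 (chr12:113428514-113428567): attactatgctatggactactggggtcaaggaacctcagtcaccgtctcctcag
Igkj5 (chr6:70723886-70723927): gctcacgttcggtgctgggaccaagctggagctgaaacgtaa
The 14 joining segments held 52 counts in napabucasin livers and 62 in vehicle livers. Ighj4, of 54 bases, had 10 of the napabucasin and 12 of the vehicle counts, and Igkj5, of 42 bases, had 13 of the napabucasin and 20 of the vehicle counts. The 19 diversity segments had 1 count in all, in napabucasin replicate 4.

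V counts per constant count ranged widely within each group, beside differences in RNA composition. Heavy V counts per 100 heavy constant counts were 1.03, 1.51, 3.70, 6.54 and 3.52 in napabucasin replicates 1 to 5, against 1.96, 3.18, 9.37, 11.4 and 9.85 in vehicle replicates 1 to 5. For kappa they were 5.67, 8.08, 21.1, 25.8 and 17.3 in napabucasin replicates 1 to 5, against 10.99, 13.8, 30.6, 27.5 and 42.1 in vehicle replicates 1 to 5. Napabucasin replicates 1 and 2 were lowest in their group and vehicle replicates 1 and 2 in theirs. The rRNA genes held 1.09%, 1.09%, 0.428%, 0.426% and 0.455% of counts in napabucasin replicates 1 to 5, against 0.347%, 0.912%, 0.333%, 0.431% and 0.195% in vehicle replicates 1 to 5. Mitochondrial genes took 19.9%, 15.3%, 10.3%, 9.03% and 11.4% in napabucasin replicates 1 to 5, against 19.0%, 7.08%, 7.04%, 8.78% and 7.03% in vehicle replicates 1 to 5. The part of RNA quality in the lower V levels was not tested.

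**Figure D4:**
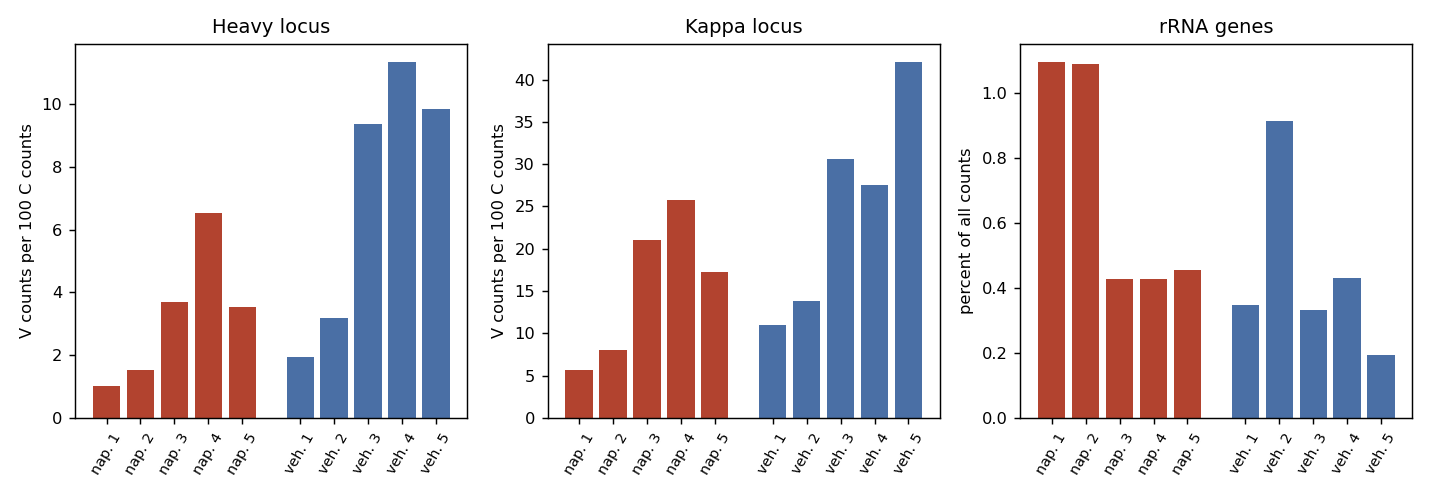
V counts per 100 constant counts at the heavy locus (left) and the kappa locus (middle), and the percent of all counts in rRNA genes (right), with a bar per liver, napabucasin in red and vehicle in blue. Napabucasin replicates 1 and 2, at 1.03 and 1.51 for the heavy locus, have the highest rRNA bars, at 1.09% each.

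Many V segments were used in each liver. The number of heavy V segments with a count was 9 to 56 in napabucasin livers and 13 to 62 in vehicle livers, and the heavy V counts themselves were 32 to 248 in napabucasin livers and 28 to 464 in vehicle livers. At an equal 28 V counts per library, the expected number was 16.04 ± 4.56 in napabucasin livers and 17.5 ± 2.97 in vehicle livers (SD, n = 5 each). For kappa, at an equal 98 V counts, it was 34.8 ± 8.89 in napabucasin livers and 38.1 ± 1.90 in vehicle livers (SD, n = 5 each). The lowest values of all were in napabucasin replicate 1, at 8.73 heavy and 20.8 kappa segments. The most abundant heavy V segment of a library took 8.33% to 21.9% of heavy V counts in napabucasin livers and 7.76% to 23.8% in vehicle livers. The most abundant kappa V segment took 8.11% to 12.9% of kappa V counts in napabucasin livers and 7.26% to 13.0% in vehicle livers. By family, Ighv1 held 59.3% ± 8.32 of heavy V counts in napabucasin livers and 57.3% ± 8.89 in vehicle livers (SD, n = 5 each). Igkv6 and Igkv1, the leading kappa families, held 16.2% ± 2.93 and 15.7% ± 7.02 in napabucasin livers, against 19.4% ± 5.86 and 18.9% ± 3.79 in vehicle livers (SD, n = 5 each). Neither family difference exceeded the spread between mice.

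The markers of B cells were higher alongside Ighd and Ighm. Of 17 names in the B cell list 16 were matched and all 16 were tested: 14 lay higher at an unadjusted p under 0.05, against 9.34% of all genes, and 0 lower. For 8 of them every napabucasin liver lay above every vehicle liver, against 1.21% of all genes, and their median log2 fold change was 1.29, beside 0.001 over all genes. None passed an adjusted p under 0.05 in edgeR. Spib, a B cell transcription factor, measured 4.61, 3.62, 5.75, 3.21 and 2.60 CPM in napabucasin replicates 1 to 5, against 0.770, 1.19, 1.35, 1.63 and 1.36 CPM in vehicle replicates 1 to 5. The groups did not overlap, and edgeR gave 1.64 on the log2 fold scale (SE 0.31, adjusted p = 0.157). Fcer2a, the low-affinity IgE receptor of mature B cells, lay at 1.44 (SE 0.30), and Cd22, an inhibitory receptor, at 1.42.

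The summed B cell list was 240 to 501 CPM in napabucasin livers and 145 to 407 CPM in vehicle livers, with no marker at 0 in all libraries. Most of that sum was Cd74, which antigen-presenting cells of other kinds also make and which had a log2 fold change of 0.34. T cell markers, which mark another lymphocyte, were higher too: 9 of 12 lay higher at an unadjusted p under 0.05, against 9.34% of all genes, and 0 lower, against 5.83%, with a median log2 fold change of 1.20. Their summed level was 25.7 to 56.0 CPM in napabucasin livers and 15.3 to 21.5 CPM in vehicle livers. Of 5 markers of lymphoid stroma, 2 were tested and Glycam1 was at 0 in every library, and their summed level was 18.6 to 79.3 CPM in napabucasin livers and 8.04 to 75.1 CPM in vehicle livers. Ccl21a, which attracts lymphocytes, lay at 2.36 on the log2 fold scale (SE 0.56, edgeR adjusted p = 0.185). The part of lymphocyte number or of lymphoid tissue in the immunoglobulin levels was not tested.

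Of 12 plasma cell markers tested, 1 lay higher at an unadjusted p under 0.05 (Derl3), against 9.34% of all genes, and 1 lower (Sdc1), against 5.83%. Both counts are near these shares, and the median log2 fold change was 0.19. Jchain, which joins IgA and IgM into polymers, measured 27.4, 39.6, 31.5, 40.9 and 16.7 CPM in napabucasin replicates 1 to 5, against 19.2, 30.6, 54.9, 28.2 and 10.99 CPM in vehicle replicates 1 to 5. Its edgeR log2 fold change was 0.12 (SE 0.36, adjusted p = 0.888), and, as for Igha and Igkc, its highest and lowest values were both in vehicle livers. Pou2af1, a coactivator at immunoglobulin promoters, had a log2 fold change of 0.72 (SE 0.37). Sdc1 and Xbp1, with log2 fold changes of -0.75 and -0.38, are also made by hepatocytes, and together they make up most of the summed plasma cell list, which was 520 to 630 CPM in napabucasin livers and 581 to 802 CPM in vehicle livers.

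**Figure D5:**
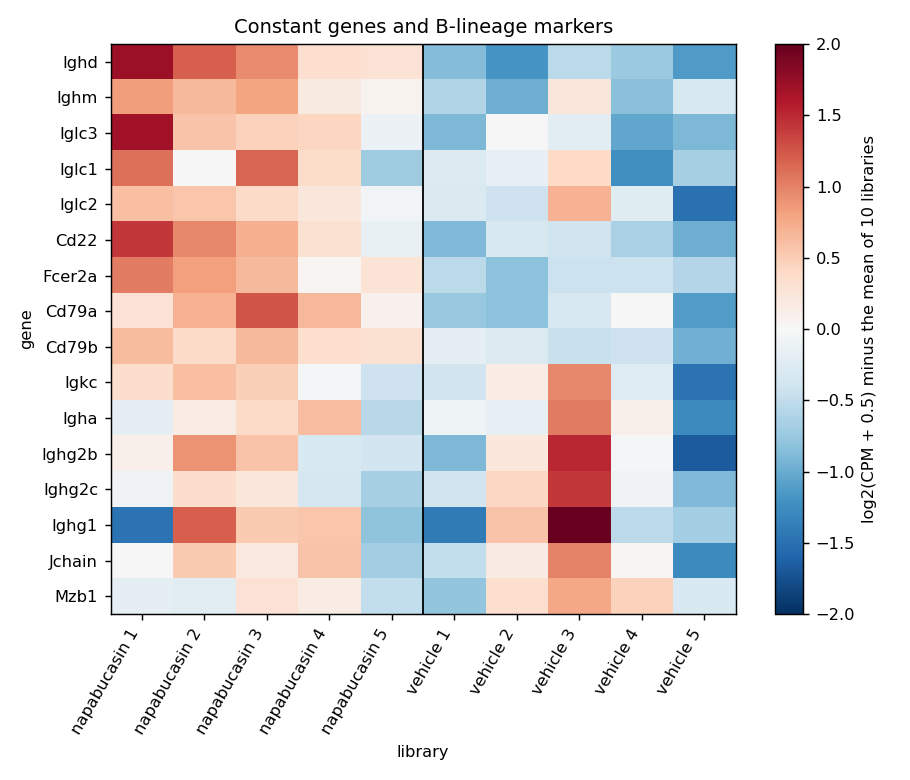
Heat map of log2(CPM + 0.5) minus the mean of the 10 libraries, with genes in rows and livers in columns, napabucasin left of the black line and vehicle right, and colours limited to 2 units either way. Ighd, Ighm, Cd22 and Fcer2a are redder in napabucasin livers. Igkc, Igha, Ighg2b, Ighg2c, Ighg1, Jchain and Mzb1 are reddest in vehicle replicate 3. Of the plasma cell list only Jchain and Mzb1 are shown, while 7 of its 12 tested genes had a log2 fold change above 0. Ighg3 is not shown.

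The genes that act with immunoglobulin were read from lists by their role, and at an unadjusted p under 0.05 each count is to be set beside 9.34% of all genes higher and 5.83% lower. Of 10 receptor chains and signalling genes of the B cell receptor, 7 lay higher at an unadjusted p under 0.05 and 0 lower, with a median log2 fold change of 1.21. Of these genes Cd79a, Cd79b, Cd22 and Blk, among others, are also in the B cell list. Cd79a and Cd79b, the signalling chains that carry membrane immunoglobulin, had log2 fold changes of 1.31 (SE 0.30) and 0.97 (SE 0.21). Of 8 genes of antibody assembly and secretion only Derl3, a component of endoplasmic reticulum degradation, lay higher, at 1.50 (SE 0.51, edgeR adjusted p = 0.256), and 0 lay lower. Mzb1 and Hsp90b1, chaperones of that compartment, lay at -0.34 and 0.12. Derl3 and Mzb1 are also in the plasma cell list. Of 8 transcription factors, Spib and Pax5, both also in the B cell list, lay higher, and Pou2f1 lay at -0.37 (edgeR adjusted p = 0.393).

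Of 10 tested genes of antibody transport and Fc receptors, 3 lay higher at an unadjusted p under 0.05 and 1 lay lower. Over all genes tested 9.34% lay higher and 5.83% lower, which applies to each list in this paragraph. The lower was Pigr, the receptor that carries polymeric IgA and IgM across epithelia, with 865, 387, 696, 570 and 616 CPM in napabucasin replicates 1 to 5, against 867, 774, 1133, 901 and 1464 CPM in vehicle replicates 1 to 5. Napabucasin replicate 1 lay within the vehicle range, and edgeR gave -0.71 on the log2 fold scale (SE 0.26, adjusted p = 0.266). The higher were Fcer2a, Fcmr, the receptor for IgM, at 0.99 (SE 0.36), and Fcgr1, the high-affinity IgG receptor of macrophages, at 1.05 (SE 0.38). Fcer2a and Fcmr are also in the B cell list, as is Cxcr5 below. Of 7 tested genes of recombination and class switching, Dclre1c lay higher at 0.60 and Dntt, the polymerase that adds untemplated bases at joins, lay lower at -1.21 (SE 0.44, edgeR adjusted p = 0.272). Rag2 had 0 counts in every library, and none of 4 surrogate light chain genes passed the filter. Of 5 tested factors of B cell survival and homing, Cxcr5, a receptor that guides B cells to follicles, lay higher at 1.56 (SE 0.46, edgeR adjusted p = 0.228), and Tnfrsf13b and Tnfrsf13c, receptors of survival factors, lay at 0.69 and 0.78.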

How the data were processed

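The authors deposited a table of raw counts per gene (whole numbers, not normalized) and a table of FPKM values per library (counts scaled by library and gene length). The deposited group mean columns were not used. CASAVA, HISAT2 2.0.5 and featureCounts 1.5.0-p3 are named in the submitters' processing notes, with GRCm38 (mm10) as the build. Strand setting, annotation release, read length and the treatment of reads with several hits are not stated there, and overlapping or near-identical segments were not separated. Igkc overlaps Gm30211 on the same strand, and Iglc1, Iglc3 and Iglv1 overlap an antisense gene that had 4 counts. Per the labels' protocols, cDNA was made from poly(A)-selected RNA with random primers. Biotypes, symbols and coordinates are those of the count table, and all 264 segments have the same coordinates in GENCODE M21, which gave the sequences.

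Counts of all genes were fitted in R 4.3.3 with edgeR 4.0.16 (filterByExpr, which left 14244 genes, TMM, robust quasi-likelihood F test, treatment as the only term), and p-values were adjusted by Benjamini-Hochberg over all of them with a threshold of 0.05. CPM use TMM library sizes. Alternatives were DESeq2 1.42.0, limma 3.58.1 (voom with quality weights, and the log2 of FPKM plus 1 or 0.1, with a filter at a mean of 0.5 FPKM or without it), other scalings and filters, a replicate block, each library left out and, chosen after seeing the data, the 3 libraries with the most rRNA left out. The log2 ratios of counts, with 0.5 added to each, were compared by exact two-sided permutation tests. The procedure was tested on simulated data. Counting error alone is covered by the limit of 3 counts given for a count of 0, and the p-values measure only the spread between these libraries.

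The segments and gene lists were chosen with earlier results of these data known. Named genes are every constant gene with a count, the tested V segments, the 4 heavy V, 4 kappa V, 2 lambda V and 2 joining segments with the highest mean CPM, and up to 4 genes of each list by smallest p, of which 1 is not reported here. Of the lists of other tissues, hepatocyte genes had a median log2 fold change of -0.17 (1 of 8 lower at an unadjusted p under 0.05), erythroid genes 0.15, pancreas genes -0.36, intestine genes -0.78 (1 of 2 lower) and adipose -0.96 (1 tested). Variable pseudogenes, left out by the rule, number 155 rows with 27 counts. Libraries of the same replicate number deviated together from their group means (correlations 0.154, 0.227, 0.208, 0.270 and 0.278). Napabucasin replicates 1 and 5 and vehicle replicates 1 and 2 correlated more with a library of another number in the other group. The labels do not say what equal numbers share. The numbers were therefore treated as pairs only in the replicate block and the exchange within pairs. The main fit and the permutation tests over all assignments did not use them.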

Additional observations from a re-analysis of the deposited data

Results flagged for a closer look

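Single libraries lay far from the other 4 of their group for 12 of 90 groups of values examined. Chance would give about 4.5 for independent, normally distributed groups. Many of the groups share counts, so the excess was not tested. Of the 12, 8 were high values in vehicle replicate 3, at the CPM that follow, each beside the next highest vehicle liver. For Ighg1 it held 34.3 against 11.7, for Ighg3 5.05 against 1.07, for Igkv10-96 4.33 against 1.29 and for Iglv1 7.46 against 1.88. For sums over segments it held 662 against 290 for all segments, 352 against 151 for heavy constant genes, 59.7 against 23.0 for kappa V and 10.4 against 2.25 for lambda V. Napabucasin replicate 1 stood out for Iglc3, with 5.05 CPM against 2.06 in the next library. Napabucasin replicate 4 had the lowest Ighg2c share of heavy constant counts, 11.1% against 13.9%. Vehicle replicate 1 had 19.0% of counts in mitochondrial genes, against 8.78% in the next vehicle liver. Vehicle replicate 5 had a log2 Igha to Ighm ratio of 0.36, against 1.86.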

How the results depend on the processing

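Ighd, Ighm, Iglc3, Iglc1, Iglc2, Ighg3, Igkc and Iglv1 kept a positive fold change under all 22 alternatives run. Segments called at an adjusted p under 0.05, all higher, numbered 1 without the low-count filter, 3 with DESeq2 and 1 with limma-voom, against 0 in the main fit. Of all genes, 0.0565%, 1.07% and 0.688% were called higher in these fits. The number was 1 with library size only and 0 to 1 with a library left out, where no share of all genes was computed. Segments lower at an unadjusted p under 0.05 numbered 13 of 201 without the filter, with 5.31% of all genes lower. They numbered 1 with the replicate block, with 8.81% of all genes lower, against 0 of 19 in the main fit. DESeq2, also run without that filter, gave 7. The FPKM fits gave 1 with log2(FPKM + 1), 1 with log2(FPKM + 0.1) and 5 with log2(FPKM + 1) without its filter. The DESeq2 and FPKM counts cover other sets of segments than the 19, and their shares of all genes were not computed. Leaving a library out gave 0 to 1 lower and 3 to 7 higher, with no share of all genes computed. With the replicate block 6 segments lay higher, beside 11.8% of all genes, and 0 were called, and the Ighd adjusted p was 0.0549. Exchange within pairs cannot give an exact p below 0.0625, so no ratio could pass 0.05 in it. It left the Ighd to Ighm difference of 0.85 at p = 0.0625 and the Igkc to lambda difference of -0.59 at p = 0.125, both exact. Without the 3 libraries with the most rRNA they were 0.67 and -0.53 (exact p = 0.0571 and 0.114). With a library left out the ranges were 0.73 to 0.98 for Ighd to Ighm, -0.71 to -0.46 for Igkc to lambda and -1.21 to -0.71 for Igha to Ighm. The lambda V sum had log2 ratios of 0.15 to 1.44.

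Some fold changes, none past the threshold, changed sign. Igkv15-103 was 0.057 with library size only, 0.10 with limma-voom, 0.023 and 0.11 with log2(FPKM + 1) and log2(FPKM + 0.1), 0.023 without the FPKM filter, 0.0077 with the replicate block and 0.46 without the 3 libraries with the most rRNA. Igkv6-23 was 0.35 with limma-voom, and Ighg1 was 0.28 with limma-voom and 0.0067 with the replicate block. Without the 3 libraries Igkv1-110 was 0.41 and Ighg2b -0.17. With a library left out the ranges were -0.61 to 0.10 for Igkv1-110, -0.44 to 0.49 for Igkv15-103, -0.21 to 0.70 for Ighg2b, -0.18 to 0.41 for Igha, -0.092 to 0.48 for Jchain, -1.13 to 0.19 for Igkv10-96, -0.57 to 0.10 for Ighg2c, -0.66 to 0.65 for Ighg1, -0.74 to 0.72 for Igkv1-117 and -0.42 to 0.058 for Igkv14-111. The causes were not tested. Low counts limit the V, J and D segments: 131 segments had fewer than 10 counts in all. A search of promoters for the octamer motif was not run, since the promoter table used here holds 0 of the segments.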
